A study of Homo sapiens with 9 samples.

Results

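The genes described here code for 10 proteins of the proximal tubule's brush border: the peptidases ENPEP, ANPEP, DPP4, MME and GGT1, the endocytic receptors LRP2 and CUBN, the water channel AQP1, the amino acid transporter subunit SLC3A1 and the phosphatase ALPL. They were chosen by name, as products that mark the apical surface of the tubule, and their probe sets were found through the array's annotation, with older symbols accepted. Of the 10 genes, 9 had a probe set of their own, 15 probe sets in all among the 22277 on the array. GGT1, which codes for the membrane enzyme that begins the breakdown of glutathione outside the cell, had none and was not analysed here. Where a gene had several probe sets, the brightest on average represented it and the others served as a check. At a filter of at least 4 on the log2 scale on at least 3 arrays, 2 of the 9 genes, ENPEP and SLC3A1, entered the tests, against 4368 of 11963 genes on the whole array.

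The cells were HK-2, an immortalised line of human proximal tubule epithelium, and the study followed their response to TGFβ1, a cytokine that drives epithelial cells towards a mesenchymal state. There were 3 groups of 3 arrays: untreated cells at 0 h, cells after 24 h with TGFβ1 and cells after 48 h with TGFβ1. All were grown in the same medium with EGF, hydrocortisone, triiodothyronine, insulin, transferrin and selenium. The sources used here do not state how much TGFβ1 was added. Each replicate number is a run of the whole time course on its own day with a consecutive passage of cells, and each array holds pooled plates of 1 run. The cells are called untreated in the sample labels and vehicle in the series description. With no untreated culture kept for 24 h or 48 h among the arrays used here, exposure to TGFβ1 and time in culture cannot be told apart. All replicates are passages of 1 cell line, so p-values measure the spread between its runs. Where the run enters the fit as a block, they measure how far the differences between times vary from run to run.

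In the kidney, the brush border is a dense carpet of microvilli on the apical face of proximal tubule cells. Its ectopeptidases trim filtered peptides to amino acids: ENPEP (aminopeptidase A) removes acidic residues and converts angiotensin II to angiotensin III, ANPEP (aminopeptidase N) removes neutral ones, DPP4 removes dipeptides that end in proline or alanine and inactivates incretin hormones, and MME (neprilysin) cuts within peptides. LRP2 (megalin) and CUBN (cubilin) take up filtered proteins by clathrin-mediated endocytosis, and SLC3A1 pairs with SLC7A9 to reabsorb cystine and basic amino acids.

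The arrays had medians between 2.2 and 2.23 on the log2 scale, and between 28.2% and 29.3% of probe sets on an array reached 4. Pearson's r over genes, each read by its brightest probe set, was 0.984 to 0.995 between arrays of a group and 0.976 to 0.994 between arrays of different groups. Of 6 tested genes that TGFβ1 is known to induce, 5 rose at both times (1 of them, PMEPA1, passed the filter only through the treated arrays), among them TGFBI, a secreted matrix protein, by 2.59 at 24 h (adjusted p = 0.000472). The HK-2 label was set against proximal tubule markers: 2 of 14 on the array, PAX8 and CDH6, passed the filter, against 4368 of 11963 genes. Past the filter were 0 of 6 endothelial markers, 0 of 5 leukocyte markers, 1 of 6 podocyte markers (PTPRO) and 1 of 6 fibroblast markers (LUM). So was 1 of 8 distal nephron markers (SCNN1A), through the untreated arrays only. Neither PTPRO nor LUM was called at 24 h or 48 h. Over the 9 arrays PTPRO averaged 10.26 and LUM 6.47, against 7.94 for CDH6 and 6.9 for PAX8. These markers thus did not single out the proximal tubule.

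Because the results turn on ENPEP and DPP4, the stretch of 250 bases before the annotated start of each gene is shown for reference, taken from RefSeq on GRCh38.p14 and written 5′ to 3′ on the gene's strand, with CG dinucleotides in capitals. The ENPEP stretch is chr4:110475905-110476154 on the plus strand and the DPP4 stretch is chr2:162074216-162074465 on the minus strand.
ENPEP: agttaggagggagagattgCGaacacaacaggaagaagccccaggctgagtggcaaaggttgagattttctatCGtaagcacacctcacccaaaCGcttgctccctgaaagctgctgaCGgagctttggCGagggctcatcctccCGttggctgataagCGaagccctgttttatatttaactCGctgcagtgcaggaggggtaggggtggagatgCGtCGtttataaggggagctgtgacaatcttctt
DPP4: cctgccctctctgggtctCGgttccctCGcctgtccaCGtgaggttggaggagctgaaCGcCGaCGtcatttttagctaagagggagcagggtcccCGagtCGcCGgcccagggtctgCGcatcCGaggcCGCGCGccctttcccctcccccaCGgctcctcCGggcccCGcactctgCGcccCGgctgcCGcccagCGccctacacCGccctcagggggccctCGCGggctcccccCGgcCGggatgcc
The ENPEP stretch had 52.0% G and C with 10 CG dinucleotides, and the DPP4 stretch had 73.6% with 26, against medians of 58.0% and 11 over the same stretch of all 35116 RefSeq windows. RefSeq windows, which run from 250 bases before to 50 after a start, were at hand for 9 of the 10 genes (16 windows), and none for SLC3A1. The letters TATAA or their reverse complement TTATA overlapped in the ENPEP window from 27 and 28 bases before the start, TTATA came again 79 bases before it, and neither was in the DPP4 window. They were in 4 of the 16 windows and in 20.435% of all windows. The half-site GTTAAT of HNF1, a transcription factor of proximal tubule and liver, was found on either strand in 1 of the 16 windows, an ANPEP window, 77 bases before the start, and in 6.883% of all windows. The HNF4 site CAAAGTCCA (0.384% of all windows), the AP-1 site TGACTCA (4.949%) and the SMAD palindrome GTCTAGAC (0.202%) were in 0 of the 16 windows on either strand.

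ENPEP was lower at 24 h than at either of the other times. Its brightest probe set read 5.66, 5.65 and 6.71 on the log2 scale in untreated cells of runs 1, 2 and 3, then 5.04, 4.30 and 4.79 at 24 h of TGFβ1, and 6.47, 5.66 and 6.06 at 48 h. Every array at 24 h was below every untreated array and below every array at 48 h, while the 48 h and untreated arrays overlapped. The mean was 6.01 ± 0.61 in untreated cells, then 4.71 ± 0.38 at 24 h and 6.06 ± 0.41 at 48 h (SD, n = 3 each).

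At 24 h, ENPEP was 2.46-fold lower than in untreated cells, a log2 difference of −1.30 with a standard error of 0.328 and a 95% interval of −2.04 to −0.56. In limma's moderated fit over all 4368 tested genes, the Benjamini-Hochberg adjusted p was 0.058, outside the threshold of 0.05. With the run as a block, the same difference had a standard error of 0.249 and a 95% interval of −1.87 to −0.73. The adjusted p was then 0.0127, which passed the threshold. The difference was negative in 3 of 3 runs, at −0.62 in run 1, −1.36 in run 2 and −1.92 in run 3. In the blocked fit the call held without run 1, at −1.64 (adjusted p = 0.0101), and was lost without run 2, at −1.27 (adjusted p = 0.0876), and without run 3, at −0.99 (adjusted p = 0.0822). These fits without a run were added after the data were seen. In the fit without the block, 0 of the 2 tested brush border genes passed at 24 h against 4.81% of all tested genes (210, 115 higher and 95 lower), and in the blocked fit 1 of 2 passed against 11.5% (501, 260 higher and 241 lower). By size, 106 of the 4368 tested genes moved further than ENPEP at 24 h, and 49 of these were lower.

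At 48 h the ENPEP level did not differ from that of untreated cells beyond its error. The difference was 0.05 (adjusted p = 0.988 in limma), with a 95% interval of −0.68 to 0.79 that allows a fold change between 0.623 and 1.73. With the run as a block the interval was −0.52 to 0.63. The runs went different ways, at 0.81 in run 1, 0.01 in run 2 and −0.66 in run 3. Of the 2 tested genes, 0 passed at 48 h with or without the block, against 4.44% of all tested genes without it (194, 99 higher and 95 lower) and 10.0% with it (438, 228 higher and 210 lower). The 24 h and 48 h comparisons share the untreated arrays.

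Between 24 h and 48 h, ENPEP was 2.55-fold higher at 48 h, a difference of 1.35 with a standard error of 0.328. The runs were close to each other, with differences of 1.43, 1.36 and 1.26, higher at 48 h in 3 of 3 runs. The unadjusted p was 0.00233 and the adjusted p 0.781 in limma, or 0.154 with the run as a block, so the difference did not pass. No gene did: 0% of tested genes were called between the times without the block and 0% with it, where 219 had an unadjusted p under 0.05 in the fit without the block. Of all tested genes, 2 moved further than ENPEP between 24 h and 48 h in either direction and 11 had a smaller unadjusted p. This comparison shares the 24 h arrays with that of 24 h against untreated cells, so the fall and the rise are not independent. The F test over the 3 times gave ENPEP an adjusted p of 0.0677, with 4.12% of tested genes past the threshold, and 0.0147 with the run as a block, with 11.2% past it.

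The other ENPEP probe set showed the same order of times. It read 4.40, 4.07 and 5.04 in untreated cells of runs 1, 2 and 3, then 3.77, 2.71 and 3.93 at 24 h and 4.99, 4.81 and 4.88 at 48 h. The 24 h arrays were again below all others, by 1.04 on average against untreated cells (adjusted p = 0.147 with every probe set tested on its own) and by more in run 2 (−1.36) and run 3 (−1.12) than in run 1 (−0.63). The probe set reached 4 on 6 of 9 arrays, none of them at 24 h. It thus passed the filter only through the untreated and 48 h arrays. At 48 h it was higher than at 24 h in each run, by 1.22, 2.10 and 0.95. Over the 9 arrays the pair of probe sets had a Pearson's r of 0.92 and a Spearman's rho of 0.98. They read the same RNA, so they are no replicates of each other.

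**Figure D1:**
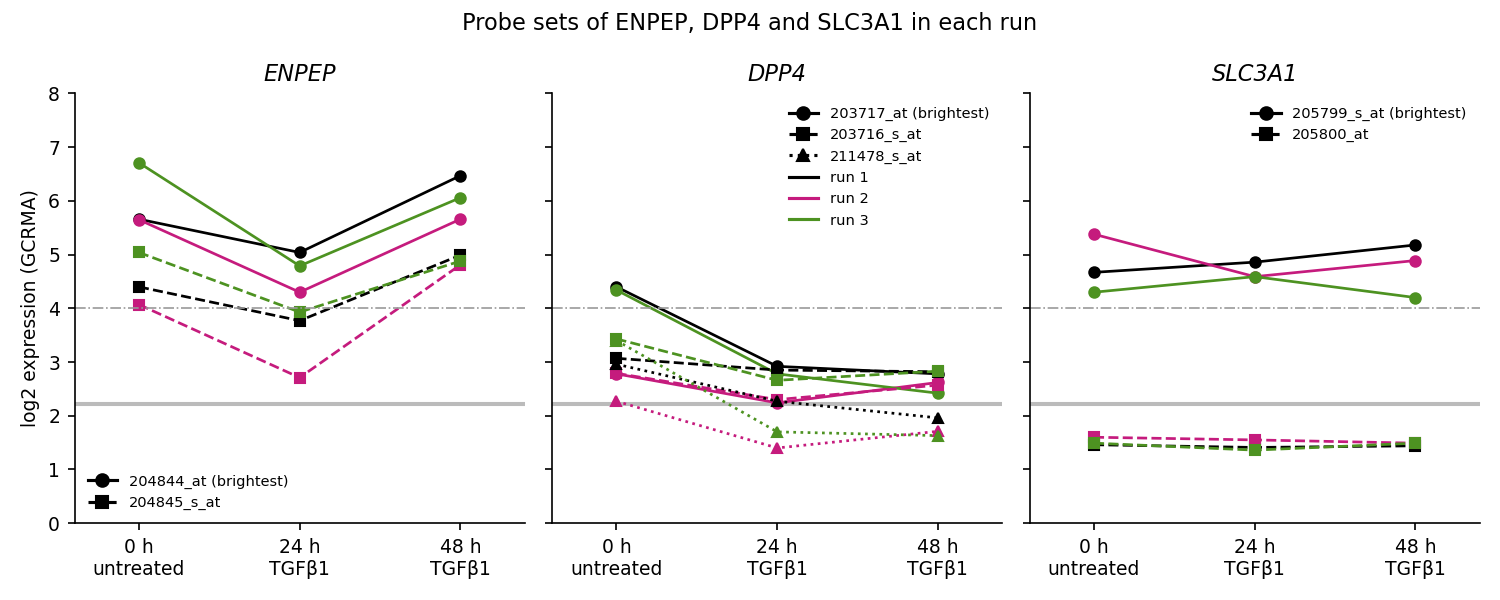
Log2 GCRMA expression (vertical axis) at 0 h, 24 h and 48 h (horizontal axis) for each probe set of ENPEP, DPP4 and SLC3A1. Colours are runs, markers are probe sets, the grey band is the range of array medians (2.2 to 2.23) and the dash-dotted line is the filter value of 4. Both ENPEP probe sets dip at 24 h in all 3 runs, DPP4 is highest in untreated cells of runs 1 and 3, and the SLC3A1 runs cross.

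DPP4 was lower at both times with TGFβ1 in all 3 runs, at levels too low for the filter. Its brightest probe set read 4.40, 2.78 and 4.34 in untreated cells of runs 1, 2 and 3, then 2.92, 2.24 and 2.78 at 24 h and 2.78, 2.62 and 2.42 at 48 h. Untreated cells of runs 1 and 3 stood above every treated array, and untreated cells of run 2 lay among the treated arrays, so the groups overlapped. The means were 3.84 ± 0.92 in untreated cells, then 2.65 ± 0.36 at 24 h and 2.61 ± 0.18 at 48 h (SD, n = 3 each). The probe set was above the array median on 9 of 9 arrays, by 0.03 to 2.17, but reached 4 on 2 of them, both untreated.

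At 24 h the DPP4 difference from untreated cells was −1.19, or 2.28-fold lower, with −1.47, −0.54 and −1.56 in the 3 runs. At 48 h it was −1.23, or 2.35-fold lower, with −1.61, −0.16 and −1.92. With no filter on low values, limma's adjusted p for DPP4 was 0.233 at both times, outside the threshold. With no filter and the run as a block, a setting added after the data were seen, the adjusted p was 0.0404 at 24 h, where 4.78% of 11963 genes passed, and 0.0396 at 48 h, where 3.93% passed. At 48 h DPP4 differed from 24 h by −0.04, with runs on both sides of 0. Among the 7595 genes below the filter, 32 had a wider range over the 9 arrays than the 2.15 of DPP4, and the median range was 0.58. Most of those genes were dimmer, with a median level of 1.8, against a mean of 3.03 for DPP4. The range of DPP4 also takes in the spread among its untreated arrays, from 2.78 to 4.40, so it does not measure a difference between times.

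The remaining DPP4 probe sets also read lower with TGFβ1. One of them read 2.96, 2.27 and 3.40 in untreated cells, then 2.27, 1.40 and 1.70 at 24 h and 1.96, 1.71 and 1.63 at 48 h, where treated and untreated arrays did not overlap at 48 h. Its differences were −1.08 at 24 h and −1.10 at 48 h, close to those of the brightest set. However, this probe set was above the array median on 4 of 9 arrays, and most of its treated values lay under it. A value under the median gives no level, so the size of its differences is uncertain. The other read 3.07, 2.79 and 3.43 in untreated cells, then 2.85, 2.30 and 2.66 at 24 h and 2.82, 2.57 and 2.83 at 48 h, with smaller differences of −0.49 and −0.36. Each was lower than its own untreated array in 3 of 3 runs at both times, and Pearson's r with the brightest set over 9 arrays was 0.95 for the first and 0.85 for the second. In whole-culture RNA, fewer cells with a transcript and less of it per cell cannot be told apart, for DPP4 as for ENPEP.

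The other peptidases were at the background of the array. ANPEP read 1.50, 1.37 and 1.33 in untreated cells, then 1.50, 1.70 and 1.88 at 24 h and 1.38, 1.27 and 1.50 at 48 h, below the array median on all 9 arrays. Its difference at 24 h was 0.29 (adjusted p = 0.425 with no filter) and at 48 h −0.02 (adjusted p = 0.99). MME read between 1.56 and 1.84 with its brightest probe set and between 0.86 and 1.57 with the other, again below the median on all 9 arrays. The MME pair did not track each other, with a Pearson's r of −0.19 over the 9 arrays, and adjusted p-values with no filter were 0.869 at 24 h and 0.953 at 48 h. A value under the median of a GCRMA array gives no level, so these data do not say whether HK-2 cells make either enzyme.

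SLC3A1, the heavy subunit of the cystine transporter, passed the filter and showed no difference between times beyond its error. Its brightest probe set read 4.67, 5.38 and 4.30 in untreated cells of runs 1, 2 and 3, 4.86, 4.59 and 4.59 at 24 h and 5.18, 4.89 and 4.20 at 48 h. The 3 groups overlapped throughout, with means of 4.78 ± 0.55 in untreated cells, then 4.68 ± 0.16 at 24 h and 4.76 ± 0.50 at 48 h (SD, n = 3 each). The difference from untreated cells was −0.10 at 24 h (95% interval −0.79 to 0.58, adjusted p = 0.916) and −0.02 at 48 h (−0.71 to 0.66, adjusted p = 0.993). The runs disagreed in sign at both times, with 0.19, −0.79 and 0.29 at 24 h and 0.52, −0.49 and −0.10 at 48 h. These intervals, from the fit without the block, allow changes of up to 1.58-fold upwards at 48 h and down to 0.578 of the untreated level at 24 h. With the run as a block they were −0.63 to 0.42 at 24 h and −0.55 to 0.5 at 48 h. The other SLC3A1 probe set read 1.36 to 1.60, below the median on all 9 arrays, and had a Pearson's r of 0.23 with the first.

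The spread of SLC3A1 lay between runs more than between times. Its run means over the 3 times were 4.90, 4.95 and 4.36, so run 3 was lowest. The ENPEP run means were 5.72, 5.20 and 5.85 and those of DPP4 3.37, 2.55 and 3.18, so for both of these peptidases run 2 was lowest. The lowest run was thus not the same for the 3 genes.

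The endocytic receptors were also at background. LRP2 read 1.24, 1.51 and 1.33 in untreated cells, then 1.71, 1.59 and 1.32 at 24 h and 1.50, 1.67 and 1.85 at 48 h, below the median on every array. At 48 h it was above its own untreated array in 3 of 3 runs, by 0.27, 0.16 and 0.52, but the groups overlapped and the mean difference of 0.31 did not pass (adjusted p = 0.554 with no filter). CUBN read 1.64, 1.53 and 1.53 in untreated cells, then 1.40, 1.33 and 1.53 at 24 h and 1.63, 1.54 and 1.53 at 48 h. Its differences were −0.15 at 24 h (adjusted p = 0.671) and 0 at 48 h (adjusted p = 1), both with no filter.

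AQP1, the constitutive water channel of the proximal tubule, read between 1.51 and 1.67 with its brightest probe set and between 1.12 and 1.57 with the other. Its range of 0.16 over the 9 arrays was narrower than that of 99.1% of the genes below the filter. ALPL, the tissue-nonspecific alkaline phosphatase, read 1.22, 1.42 and 1.27 in untreated cells, then 1.36, 1.54 and 1.27 at 24 h and 0.85, 1.27 and 1.27 at 48 h. Neither passed in the fit with no filter, with adjusted p-values of 0.902 at 24 h and 0.897 at 48 h for AQP1 and of 0.892 and 0.822 for ALPL. The ranges of LRP2 (0.62), ANPEP (0.61), CUBN (0.31) and MME (0.28) were each within the spread of other dim genes.

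Some values of these dim probe sets repeated between arrays of a run. Among the 9 differences between times within a run, 3 were within 0.01 of 0 for each of CUBN, AQP1 and ALPL, and 1 for each of ANPEP and MME. The count was also 1 for ENPEP, which is not dim, and 0 for DPP4, LRP2 and SLC3A1. Over all genes below the filter, 7.79% of such pairs were within 0.01, against 4.18% over tested genes.

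**Figure D2:**
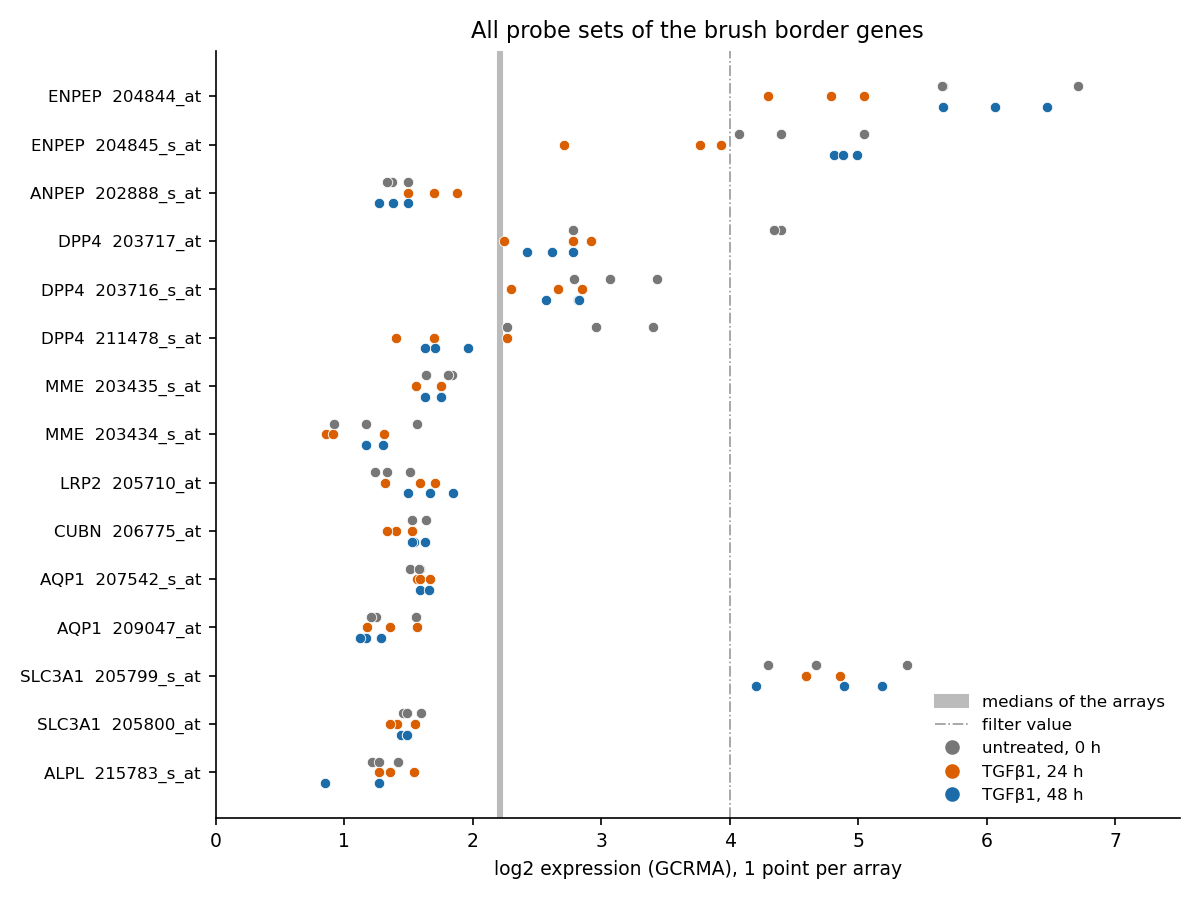
Log2 GCRMA expression (horizontal axis) of all 15 probe sets, 1 point per array, coloured by time. The grey band is the range of array medians and the dash-dotted line the filter value of 4: all points of ANPEP, MME, LRP2, CUBN, AQP1 and ALPL lie left of the band, and those of ENPEP, DPP4 (brightest probe set) and SLC3A1 (brightest probe set) lie right of it.

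**Figure D3:**
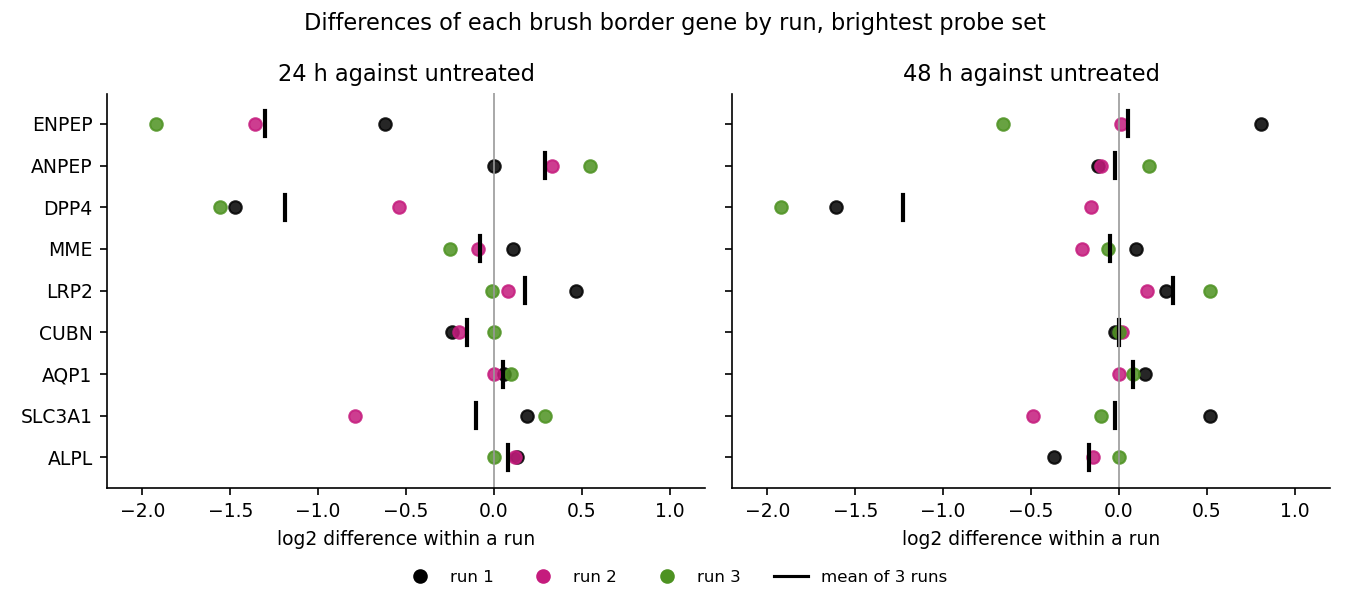
Log2 difference from the untreated array of the same run (horizontal axis) at 24 h and 48 h for the brightest probe set of each gene, 1 point per run with the mean of 3 runs as a bar. ENPEP is left of 0 in all runs at 24 h and on both sides at 48 h, DPP4 is left of 0 in all runs at both times, and SLC3A1 is on both sides at both times.

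Genes related to these 10 by function were read from the same fit, where 4.81% of all tested genes were called at 24 h and 4.44% at 48 h. Of 31 related peptidases listed, 22 were on the array and 10 passed the filter. At 24 h and at 48 h 0 of the 10 were called, with median differences of −0.28 and −0.13 against 0.02 for all tested genes at both times. CPM, a membrane carboxypeptidase, read 7.12, 6.85 and 6.84 at 24 h, against 7.60, 7.39 and 8.26 in untreated cells. Its difference of −0.81 did not pass (adjusted p = 0.167) without the block and passed with it (adjusted p = 0.0358). It was named after its values were seen. FAP, the closest relative of DPP4, ACE, which makes angiotensin II, and MEP1A, a meprin subunit, were below the array median on all 9 arrays.

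Of 32 endocytic adaptors and members of the LDL receptor family listed, 26 were on the array and 15 were tested. Of all tested genes, 4.81% were called at 24 h and 4.44% at 48 h, and of the 15, 1 at each time. That gene was LRP4, a relative of LRP2 known as the agrin receptor of muscle, which read 4.49, 4.20 and 4.71 at 24 h and 4.24, 3.75 and 4.50 at 48 h, against 2.71, 2.44 and 2.73 in untreated cells. It rose by 1.84 at 24 h (SE 0.213, adjusted p = 0.00121) and by 1.53 at 48 h (adjusted p = 0.00319), and passed the filter only through the treated arrays. LRPAP1, the chaperone of megalin and its relatives, was at 5.10 at 24 h, against 5.07 in untreated cells (adjusted p = 0.962). DAB2, the adaptor that links megalin to clathrin, read 2.50 to 3.63 and was below the filter. The median difference of the 15 genes was 0.10 at 24 h and 0.03 at 48 h.

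Among structural and scaffold proteins of microvilli, 18 of 21 listed were on the array and 9 were tested. PLS1 (plastin 1), which bundles actin in microvilli, fell at 24 h, with 5.66, 4.63 and 5.15, against 6.73, 6.11 and 6.60 in untreated cells, a difference of −1.33 (SE 0.287, adjusted p = 0.0296). At 48 h it read 5.65, 5.00 and 5.60, a difference of −1.07 from untreated cells that did not pass without the block (adjusted p = 0.0755) and passed with it (adjusted p = 0.00135). PDZK1, a scaffold for apical transporters, read 5.06, 3.63 and 5.06 at 24 h and 4.86, 3.83 and 5.06 at 48 h, against 5.96, 5.45 and 6.91 in untreated cells. Its difference was −1.52 at both times, with adjusted p-values of 0.153 at 24 h and 0.161 at 48 h, and of 0.00151 and 0.00163 with the run as a block. It too was named after its values were seen. The median difference of the 9 genes was −0.18 at 24 h and −0.23 at 48 h, and VIL1 (villin) was at background, at 1.35 to 2.13. Unlike that of ENPEP, the mean of PDZK1 at 48 h was no nearer to the untreated level than at 24 h, a contrast whose size was not tested.

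Of 27 apical and related transporters, 22 were on the array and 3 were tested, with 0 called at either time. SLC7A9, the light subunit that pairs with SLC3A1, read 1.33 to 1.73, below the median on all 9 arrays. SLC7A5, the light subunit that pairs with the SLC3A1 relative SLC3A2, read 4.64, 5.55 and 5.55 at 24 h, against 3.68, 5.04 and 3.86 in untreated cells. That was a difference of 1.06 with an adjusted p of 0.191, or 0.0259 with the run as a block. ABCC4, an efflux pump for organic anions, read 5.37, 5.31 and 5.49 at 24 h, against 5.61, 6.25 and 6.24 in untreated cells, a difference of −0.65 with an adjusted p of 0.124, or 0.049 with the block. SLC17A3, an organic anion and urate transporter, was below the filter. It read 1.76, 2.10 and 1.81 at 24 h and 2.39, 1.74 and 2.06 at 48 h, against 4.12, 3.66 and 3.77 in untreated cells. It was above the array median on 4 of 9 arrays, and most treated values lay under it, where a value gives no level. These transporters were named after their values were seen. Of 14 ectoenzymes and phosphatases related to ALPL, 13 were on the array and 2 were tested, with 0 called. ALPP, ALPG and ALPI, the other alkaline phosphatases, were below the array median on all 9 arrays.

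**Figure D4:**
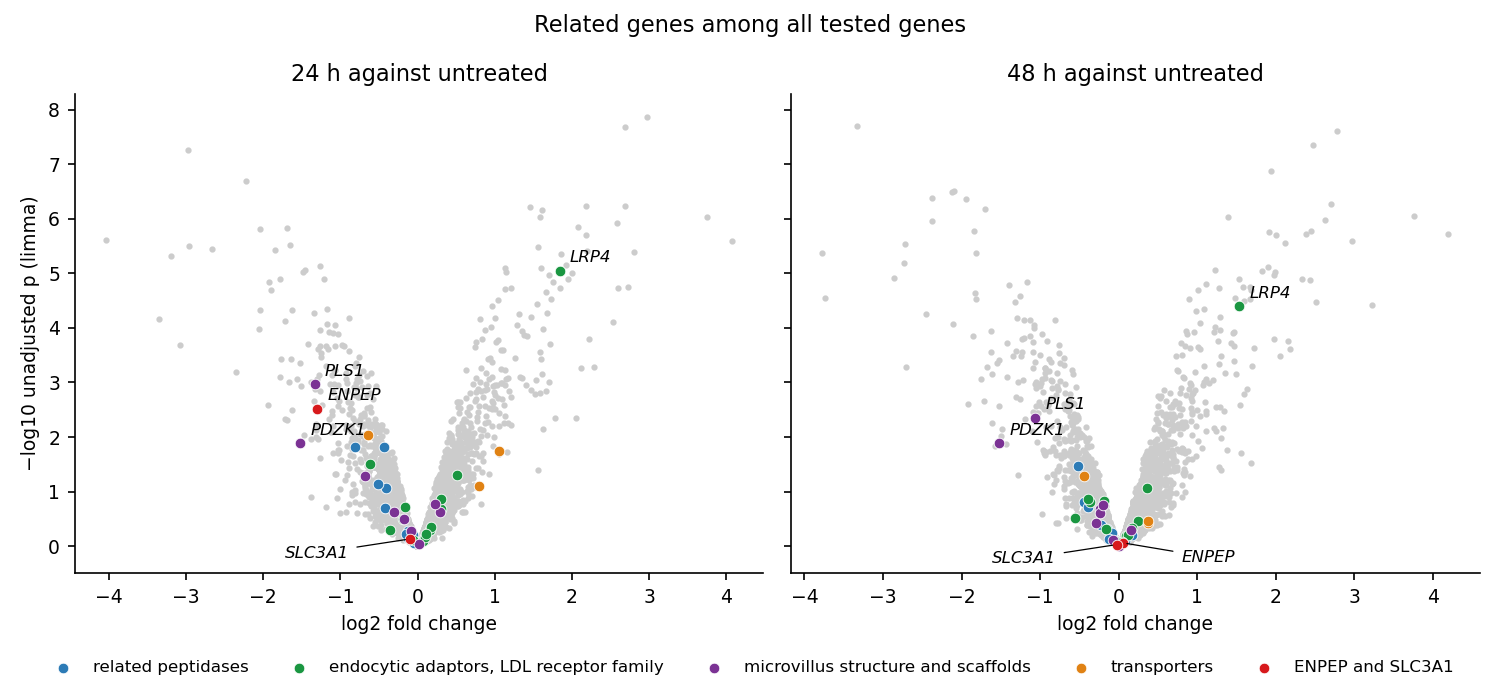
Log2 fold change against untreated cells (horizontal axis) and −log10 of limma's unadjusted p without the block (vertical axis) for all 4368 tested genes in grey, with related genes in colour. LRP4 lies at upper right at both times, PLS1, ENPEP and PDZK1 lie together on the left at 24 h, and at 48 h ENPEP sits beside SLC3A1 near 0 while PLS1 and PDZK1 stay on the left.

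The tubule and other cell type markers moved as follows beside these genes. PAX8, a renal epithelial transcription factor, fell by 0.60 at 24 h (adjusted p = 0.0233) and by 0.81 at 48 h (adjusted p = 0.00496). CDH6, a proximal tubule cadherin, was at 8.57 at 48 h, against 7.24 in untreated cells (adjusted p = 0.103, or 0.00659 with the run as a block). SCNN1A, the epithelial sodium channel subunit and the only tested marker of 8 distal nephron markers on the array, fell by 3.20 at 24 h and by 2.86 at 48 h. It read 2.75, 3.92 and 2.97 at 24 h and 3.54, 3.99 and 3.11 at 48 h, against 6.11, 6.89 and 6.22 in untreated cells, so it passed the filter only through the untreated arrays. The other 7 distal markers were below the array median on all 9 arrays, so the linear sum of the 8, at 24.1 to 34.5 at 24 h and 27.2 to 34.8 at 48 h, against 88.3 to 138 in untreated cells, mostly restates SCNN1A. The linear sum of the 14 proximal markers on the array, mostly that of CDH6 and PAX8, was 373 to 438 at 24 h and 439 to 633 at 48 h, against 306 to 503 in untreated cells. Within that list SLC4A4, the basolateral sodium bicarbonate cotransporter, was below the filter. It read 2.78, 2.99 and 3.0 at 24 h and 3.0, 2.58 and 2.68 at 48 h, against 4.18, 3.86 and 4.72 in untreated cells. SLC4A4 was named after its values were seen. The part of these shifts in the values of ENPEP and DPP4 was not tested.

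The genes whose levels ran most like ENPEP over the 9 arrays, by Pearson's r among all tested genes, were OGT (0.94), the transferase that adds O-linked N-acetylglucosamine, TERF2 (0.933), a telomere-binding protein, and ALDH6A1 (0.932), a mitochondrial enzyme of valine breakdown. Each was lowest at 24 h: OGT averaged 6.49 in untreated cells, then 5.99 at 24 h and 6.73 at 48 h, TERF2 4.02, 3.56 and 4.03, and ALDH6A1 4.47, 3.95 and 4.53. None of the 3 passed at 24 h (adjusted p = 0.355, 0.336 and 0.266 in limma). For SLC3A1 they were RND3 (0.912), FOLR1 (0.895) and COX6A1 (0.875), whose adjusted p-values at 24 h were 0.629, 0.964 and 0.976. These correlations include the differences between runs as well as times and were picked as the highest of 4368 genes. The low at 24 h in the genes most like ENPEP follows from that choice and is no separate observation.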

How the data were processed

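Total RNA of HK-2 cells was hybridised to 9 Affymetrix arrays. The deposited values are on the log2 scale and were normalized with GCRMA, per the submitters' processing notes, which name no version; GCRMA corrects background from probe sequence, so dim probe sets gather near a floor. Genes were named through the platform annotation: 19064 probe sets had 1 symbol, 1043 several, 2108 none and 62 were controls, and 19058 were updated by gene ID. Groups and runs came from the sample titles.

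The brightest probe set per gene entered a limma 3.58.1 fit (R 4.3.3) of the 3 groups. The fit used the filter of 4 on 3 arrays, Benjamini-Hochberg adjustment and a threshold of 0.05. It was tried on simulated data that had no run effect, for the 24 h comparison only. The fit with the run as a block was not tried on simulated data. Precision is limited by the small number of arrays. The main fit ignored the pairing of arrays within runs, and the fit with the run as a block, the alternative, used it. Deviations from group means correlated at 0.378 to 0.662 between arrays of a run and −0.526 to 0.185 between runs, and 9 of 9 arrays matched their own run best. The labels' treatment protocol states that the experiment was repeated on different days. The median standard error at 24 h was 0.191 without the block and 0.139 with it. Other alternatives were filters, normalization, variance model, probe sets, only the groups compared, and leaving out arrays or runs. All 10 genes were named whatever their values; from each list, up to 4 genes past the threshold, and the 3 genes most like each tested gene, with other names marked as chosen later or as background roles. The genes and lists were chosen with earlier results of these data known.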

Additional observations from a re-analysis of the deposited data

How the results depend on the processing

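Over 20 planned settings other than the main one, ENPEP at 24 h stayed negative, between −1.64 and −0.95, with adjusted p from 0.0127 to 0.386. It passed in 3 of them, the replicate block, quantile normalization (0.0435) and a variance trend (0.0373), so that 1 of the brush border genes was called at 24 h under each of these and 0 under the rest. Over all tested genes these 3 settings gave 501, 220 and 235 calls at 24 h, against 210 in the main one. Among settings added after the data were seen, the count was 1 with the block and without replicate 1, for which the all-gene share is not given here. It was 2 at 24 h and 1 at 48 h with the block and no filter, where DPP4 passed. There 4.78% of all genes passed at 24 h and 3.93% at 48 h. The block also brought the F test of ENPEP past the threshold (adjusted p = 0.0147, against 0.0677 without it). With the filter kept, no other call of ENPEP or SLC3A1 changed with the block. Over all tested genes the block gave 501 calls at 24 h, 438 at 48 h and 491 in the F test; a fit of only the groups compared gave 124 at 24 h. Leaving out arrays or runs gave 34 to 213 calls at 24 h, 33 to 206 at 48 h and 26 to 197 in the F test. At 24 h the count moved by over 1.5 times without untreated replicate 1 (105), 24 h replicates 2 (130) or 3 (116), 48 h replicate 1 (138), or run 1 (34), 2 (129) or 3 (81). At 48 h it did so without untreated replicate 1 (119), 48 h replicates 1 (112) or 3 (111), or run 1 (33), 2 (112) or 3 (79), and in the F test without untreated replicate 1 (95), 48 h replicate 1 (111), or run 1 (30), 2 (105) or 3 (26). Fewer arrays entered these fits; other causes were not tested. Between 24 h and 48 h every setting run gave 0 calls. No result changed sign while called. Dim probe sets near the floor limit what can be said of ANPEP, MME, LRP2, CUBN, AQP1 and ALPL.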
